A study of Homo sapiens with 4 samples.

Results

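The SERPINA cluster on chromosome 14 is a run of neighbouring genes for secreted serpins, and 7 of them are described here: SERPINA10, SERPINA6, SERPINA1, SERPINA11, SERPINA4, SERPINA5 and SERPINA3, in their order along the chromosome. Every DNA loop with an anchor that touched the body of one of these genes, or 50 kb on either side, was taken from the loop lists of a POLR2A HiChIP-seq experiment. This gave 43 of 66417 loops in mock-treated cells and 10 of 18778 loops in PDS-treated cells. The genes were chosen by name and position, not by their counts of loops. HiChIP-seq joins DNA ends that lie close together in fixed nuclei and then enriches the joined fragments with an antibody, here against POLR2A, the largest subunit of RNA polymerase II (RNAPII). Each paired-end tag (PET) records 1 such junction, and a loop is a pair of anchors linked by at least 3 PETs. HepG2, a human hepatocellular carcinoma line, was treated for 24 h with sterilized water (mock) or with 20 µM pyridostatin (PDS), a small molecule that binds G-quadruplex (G4) structures, in 2 replicates per condition.

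Serpins are protease inhibitors that trap their target enzyme through a large change of their own shape, and a few have lost inhibition and serve as hormone carriers. Hepatocytes make many of them for the blood, and several are acute phase proteins. SERPINA1 encodes alpha-1-antitrypsin, the main inhibitor of neutrophil elastase, and SERPINA3 encodes alpha-1-antichymotrypsin, an inhibitor of cathepsin G. SERPINA4 is kallistatin, an inhibitor of tissue kallikrein, SERPINA5 is the protein C inhibitor, SERPINA10 is the inhibitor that acts on factor Xa with protein Z, and SERPINA6 is corticosteroid-binding globulin, which carries cortisol. SERPINA11 is a less studied member. The experiment asked how RNAPII-linked loops differ between cells with and without a G4 ligand.

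Each condition had 1 combined list, so the spread between replicates could not be measured and no p-value is given. Intervals are 95% Wilson intervals, or ratios computed from them, and cover counting error only. PETs carry no molecular identifiers and are not all independent molecules. All listed loops summed to 254647 PETs (mock) and 67001 PETs (PDS), sums that are not library depths; those were not part of the lists. A loop absent from a list can have had up to 2 PETs there, so for a loop of 3 PETs a loss was not detectable at this depth. The labelled cell type could not be checked against marker expression, since the lists hold loops only.

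On GRCh38 the 7 genes and their flanks merged into 2 windows, chr14:94230460-94502800 and chr14:94511442-94674055, of 435 kb in all. SERPINA10, SERPINA6, SERPINA1 and SERPINA11 are read from the minus strand, and SERPINA4, SERPINA5 and SERPINA3 from the plus strand. SERPINA2, SERPINA9, SERPINA12 and the pseudogene SERPINA13P lie among them or beside them. The loops used 46 distinct anchors of 2251 to 19597 bp, with a median of 6568 bp. All 46 had an MboI site of the reference genome at both ends, as the digestion by MboI would leave. Anchors of this width cover a promoter together with several kb around it, and a loop therefore places RNAPII-bound chromatin near a start site without naming the base. In mock-treated cells 19 of the 43 anchors in use lay within 1 kb of a start site of some annotated gene, and in PDS-treated cells 6 of 18 did. The same share was not computed over all anchors, and no difference between the conditions was tested, so these counts only describe the cluster.

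Promoters at the ends of these loops are shown for 4 members, because the loops described next start from them. SERPINA6 and SERPINA1 are the only members whose start sites were joined to each other. SERPINA5 is the only member with a predicted G4 motif in the 250 bases before a RefSeq start, although promoter anchors of other members hold motifs outside these bases. SERPINA3 had the most mock loops within 1 kb of a start site. The sequences are from the RefSeq promoter table of GRCh38.p14, written 5′ to 3′ on the strand of the gene, and are the longest stretch within 250 bases before the start that no annotated UTR covers. The last base printed lies 54 (SERPINA6), 64 (SERPINA1), 33 (SERPINA5) and 95 (SERPINA3) bases before the canonical start, so the bases nearest to it are not shown. Capitals mark the 4 runs of G of the motif in SERPINA5. The stretches are chr14:94323390-94323586 (minus strand), chr14:94388666-94388800 (minus strand), chr14:94581176-94581393 (plus strand) and chr14:94612141-94612296 (plus strand).
SERPINA6: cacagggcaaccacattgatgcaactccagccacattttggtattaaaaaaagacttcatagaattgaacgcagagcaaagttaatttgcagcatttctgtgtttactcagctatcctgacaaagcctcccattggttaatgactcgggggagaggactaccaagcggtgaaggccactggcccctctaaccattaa
SERPINA1: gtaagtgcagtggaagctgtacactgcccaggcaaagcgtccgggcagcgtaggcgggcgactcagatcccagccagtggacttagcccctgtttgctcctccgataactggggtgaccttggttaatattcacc
SERPINA5: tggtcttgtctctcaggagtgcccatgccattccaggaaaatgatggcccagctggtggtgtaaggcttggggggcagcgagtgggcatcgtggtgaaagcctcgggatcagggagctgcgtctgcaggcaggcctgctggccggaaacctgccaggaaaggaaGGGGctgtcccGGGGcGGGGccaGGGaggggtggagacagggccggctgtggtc
SERPINA3: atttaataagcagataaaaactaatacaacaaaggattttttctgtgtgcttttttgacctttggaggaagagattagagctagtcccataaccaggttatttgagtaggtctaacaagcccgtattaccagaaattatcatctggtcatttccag

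The letters TATAAA, on the strand of the gene, were searched in the full 250 bases before a start, not in the printed stretches alone. They were in 0 of 9 member promoters and in 6.80% of 35116 promoters of the same length. This match describes the letters only and says nothing of the factors bound in these cells.

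In mock-treated cells the 43 loops held 161 PETs. In PDS-treated cells the 10 loops held 32 PETs. The PDS/mock ratio was 0.233 (0.118 to 0.457) for loop numbers and 0.199 (0.136 to 0.290) for PETs. Over all chromosomes these ratios were 0.283 (0.278 to 0.287) and 0.263 (0.261 to 0.265). The interval of the cluster's loop ratio holds the value of all chromosomes, so at this number of loops no difference in loop number between the cluster and the genome was detectable. The PET ratio of all chromosomes also lies in the interval of the cluster's PET ratio. The rest of chromosome 14 had 4456 mock and 1648 PDS loops, with ratios of 0.370 (0.350 to 0.391) for loops and 0.334 (0.325 to 0.344) for PETs. Its higher loop ratio came from the stretch of 20 to 40 Mb, with 0.409 (0.383 to 0.437), since outside that stretch chromosome 14 gave 0.289 (0.260 to 0.321). Nearer by, within 5 Mb on either side and without the cluster, 201 and 66 loops gave 0.328 (0.249 to 0.433), and the PET ratio was 0.302 (0.260 to 0.351). The loop ratios of the rest of chromosome 14 and of the nearby 5 Mb lie within the cluster's interval for loops, whereas their PET ratios lie above its interval for PETs, which ends at 0.290. These intervals leave out the spread between replicates, and PETs of 1 loop are not independent.

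**Figure D1:**
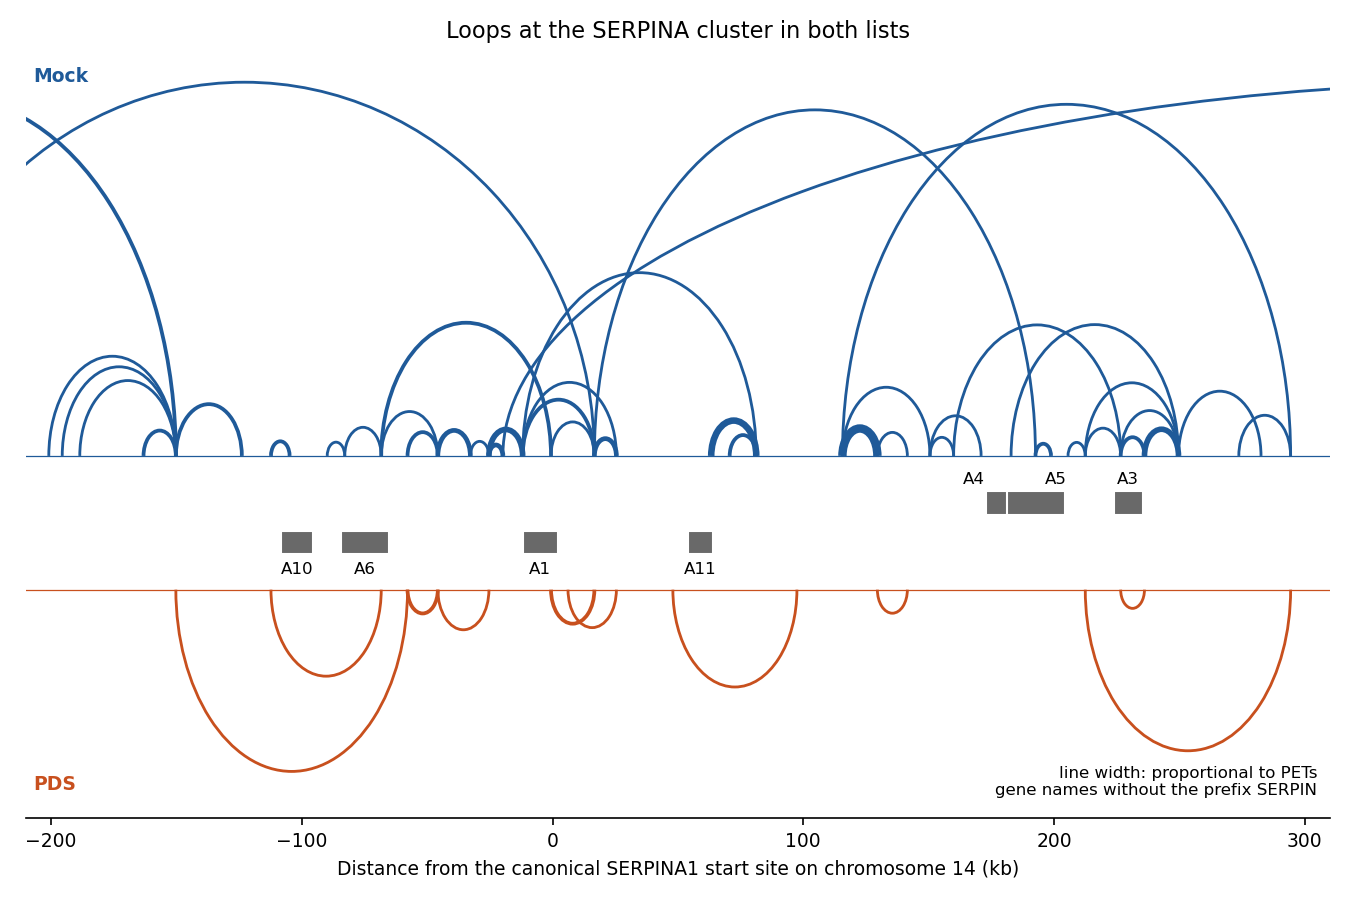
Map of the loops at the SERPINA cluster, with mock loops above and PDS loops below the genes; the horizontal axis is the distance in kb from the canonical SERPINA1 start site, line width is proportional to PETs, arc height grows with distance up to a limit, and filled boxes are the 7 gene bodies (plus strand above, minus strand below, named without the prefix SERPIN, and with the A4 box inside the start of the A5 box). The 43 mock arcs cover the cluster from end to end and 3 of them run out of the frame, whereas the 10 PDS arcs are scattered and all within it.

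Most of these loops were weak in both conditions. Of the mock loops 26 had 3 PETs, 10 had 4, 3 had 5, 2 had 6, 1 had 7 and 1 had 9. Of the PDS loops 8 had 3 PETs and 2 had 4. The share with 3 PETs in mock-treated cells was 60.5% (45.6 to 73.6) at the cluster and 59.9% over all chromosomes. Contacts were mostly short, with a median of 20.4 kb between anchor midpoints in mock-treated and 19.8 kb in PDS-treated cells. The 5 mock loops over 100 kb, of 3 or 4 PETs each, were not in the PDS list, whose longest cluster loop spanned 92.4 kb. Over all chromosomes 5.97% of mock loops with 3 PETs, and 13.6% of those with 4 or 5, were in that list.

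Of 49 distinct loops 4 were in both lists, 39 in the mock list alone and 6 in the PDS list alone. This count is for identical anchors and depends on the overlap rule: with anchors extended by 5 kb, 17 were in both lists. The share of all loops under that extension was not computed, so this rise cannot be set against the genome. A loop called absent below is absent between these anchors and can have a listed neighbour. The plot of PETs per loop shows all of them in order along the chromosome. The 4 shared loops were 9.30% (3.68 to 21.6) of the mock loops, where 11.0% of all mock loops were also in the PDS list, and 40% (16.8 to 68.7) of the PDS loops, where the genome gave 39.1%. Both shares at the cluster were near those of the genome. On the rest of chromosome 14, 18.0% of mock loops were shared (16.9 to 19.1).

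**Figure D2:**
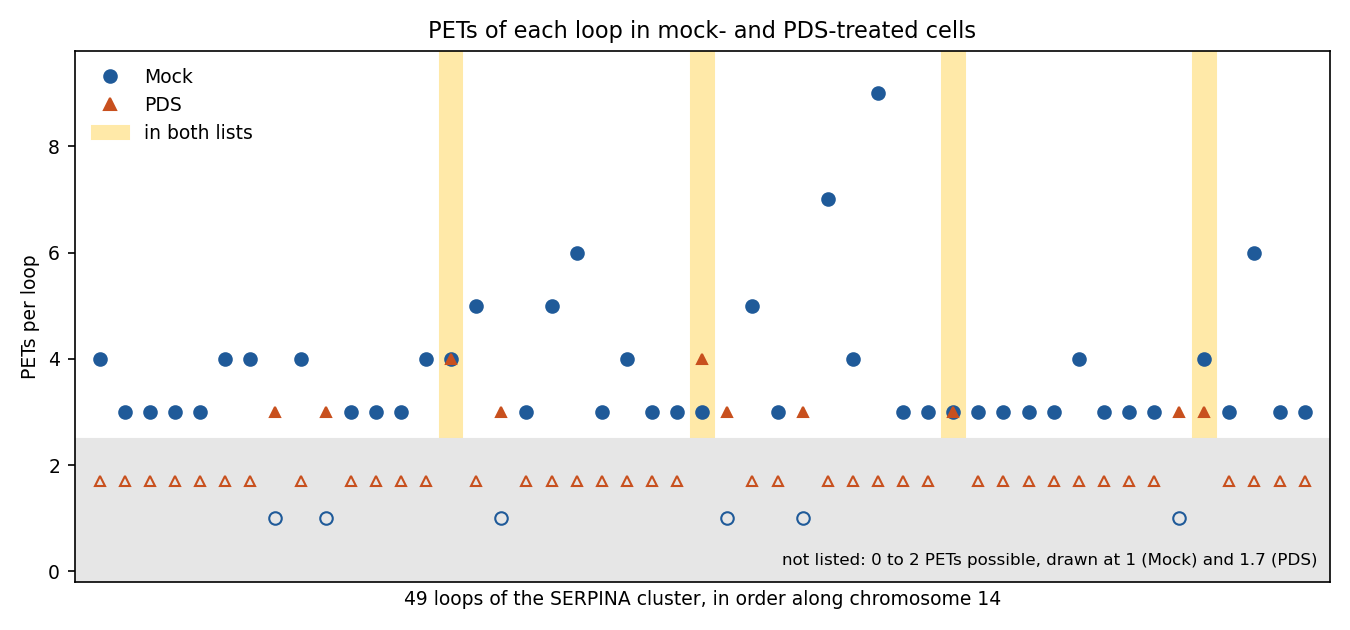
PETs of each of the 49 cluster loops (vertical axis) in order along chromosome 14 (horizontal axis), with circles for mock-treated and triangles for PDS-treated cells; open symbols in the grey band stand for loops absent from a list, which can have 0 to 2 PETs, and yellow bands mark the 4 loops in both lists. The loops with 5 to 9 PETs in mock-treated cells all have an open PDS symbol.

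Of the 4 shared loops 2 sat at promoters of member genes. The SERPINA1 promoter (chr14:94384561-94391442) was joined to an anchor 17.3 kb away in an intron of the long noncoding gene ENSG00000289541 (chr14:94399829-94410757), with 3 PETs in mock-treated and 4 in PDS-treated cells. The SERPINA1 anchor also lies within 1 kb of a start of ENSG00000289541. This contact therefore cannot be assigned to SERPINA1 alone. At SERPINA3 the promoter anchor (chr14:94610076-94620335) was joined to the 3′ part of the gene 9.50 kb away (chr14:94621170-94628247), with 4 PETs and 3 PETs. The other pair of shared loops touched no member gene. An intergenic contact between SERPINA6 and SERPINA2 (chr14:94327316-94334230 with chr14:94337973-94347742) had 4 PETs in each condition, and a contact from the SERPINA12 promoter anchor (chr14:94512435-94523911) to an intergenic anchor (chr14:94529011-94531261) had 3 in each. No shared loop differed by more than 1 PET.

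The strongest mock loops were all absent from the PDS list, so the same pair of anchors can have had at most 2 PETs there. The highest count, 9 PETs, joined 2 anchors within SERPINA12, the gene of the adipokine vaspin (chr14:94500173-94508296 with chr14:94512435-94523911). A loop of 7 PETs joined the SERPINA11 promoter anchor (chr14:94450000-94453793) to that of SERPINA9 (chr14:94462487-94477241), the gene of centerin, a serpin of germinal centre B cells, 18.0 kb away. Loops of 6 PETs joined SERPINA2 (chr14:94360331-94366146) to the 3′ part of SERPINA1 (chr14:94371675-94381703), and the 3′ part of SERPINA3 to the SERPINA13P anchor (chr14:94630800-94645744). The 3 loops of 5 PETs lay between SERPINA6 and SERPINA2, at SERPINA2, and within ENSG00000289541 beside SERPINA1.

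Strength in the mock list and presence in the PDS list can be set against the genome for 3 classes of count. With 3 PETs, 2 of 26 cluster loops were also in the PDS list (7.69%, 2.14 to 24.1), against 5.97% of all such mock loops. With 4 or 5 PETs the cluster had 2 of 13 (15.4%, 4.33 to 42.2), against 13.6%. With at least 6 PETs it had 0 of 4 (upper bound 49.0%), against 35.4% of all such loops and 52.0% (48.2 to 55.9) of those on the rest of chromosome 14. In each class the interval of the cluster holds the share of all chromosomes. For the 4 strong loops it ends below the share of the rest of chromosome 14, whose own interval reaches down to 48.2% and overlaps it.

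**Figure D3:**
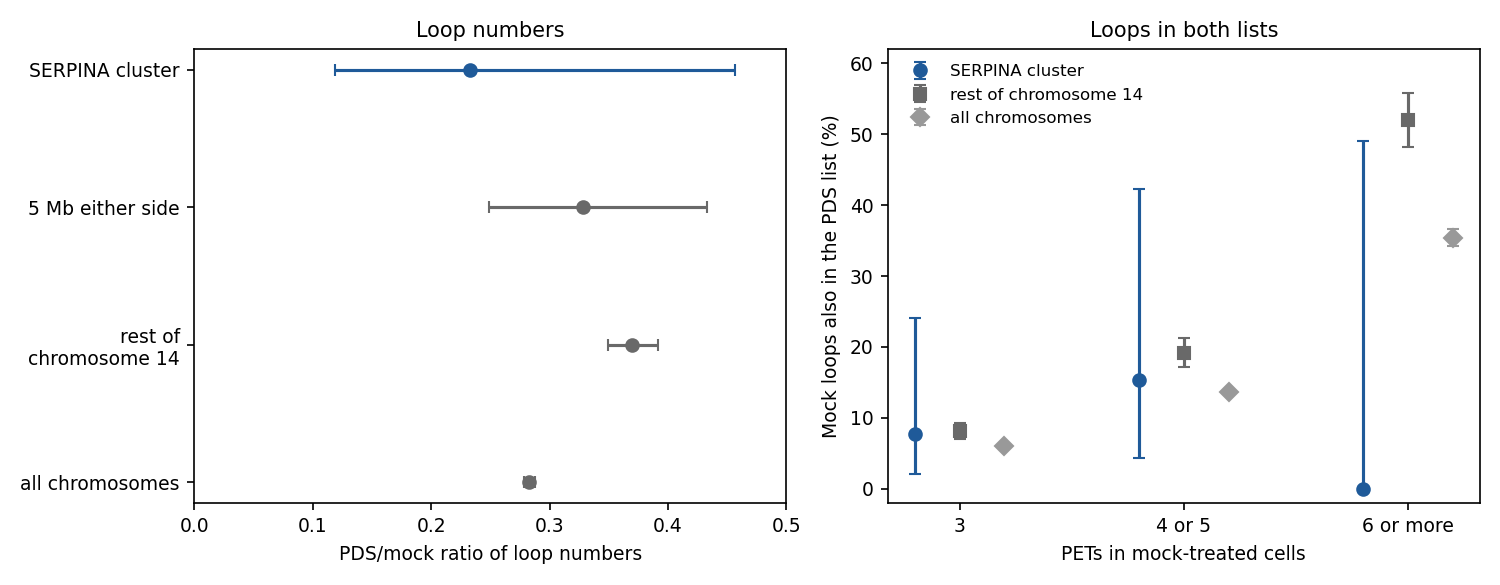
Left, PDS/mock ratio of loop numbers (horizontal axis) at the cluster, within 5 Mb on either side without it, on the rest of chromosome 14 and on all chromosomes; right, percent of mock loops also in the PDS list (vertical axis) by their PETs in mock-treated cells (horizontal axis), for the cluster, the rest of chromosome 14 and all chromosomes. Points are values and bars are 95% intervals for counting error, and the bars of the cluster are wide and reach over the value of all chromosomes in both panels.

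Among the single genes, counts over the body and 50 kb on either side were close to one another, because these windows overlap and a loop can count for several genes. In mock-treated cells they ran from 12 loops at SERPINA11 to 16 at SERPINA5, where the median protein-coding gene had 6. In PDS-treated cells they ran from 2 at SERPINA3 to 6 at SERPINA1, where the median was 1. All 7 genes thus had loops nearby in both conditions. This is common in windows of this kind, where the lower quartile of protein-coding genes was 2 mock loops and the PDS median 1 loop. Some of these loops belong to neighbours, and 7 of the mock loops had an anchor in the body of PPP4R4, a gene for a phosphatase regulatory subunit on the SERPINA10 side. The anchors with the most mock loops were 1 within PPP4R4 (chr14:94228572-94248168, 6 loops), the ENSG00000289541 anchor beside SERPINA1 (5), the SERPINA13P anchor (5), the 3′ part of SERPINA1 (4) and the SERPINA3 promoter (4). These 5 anchors had 1, 1, 0, 0 and 1 loops in the PDS list, and picking them by their mock loops favours lower counts there.

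Counted on the gene body alone, the members separated. SERPINA1 had 6 mock loops with 23 PETs, SERPINA3 had 5 with 19, SERPINA5 had 5 with 16 and SERPINA6 had 4 with 13. SERPINA4 had 2 loops with 6 PETs, SERPINA11 had 1 with 7 and SERPINA10 had 1 with 4. In the PDS list SERPINA1 kept 1 loop of 4 PETs and SERPINA3 1 loop of 3, SERPINA6 had 1 loop of 3 PETs that was not in the mock list, and the other 4 genes had none. So 7 of 7 members had a mock loop at the body, against 70.2% of 19970 protein-coding genes, and 3 of 7 had a PDS loop there, against 39.6%. Distinct body loops numbered 21 in the mock and 3 in the PDS list, a ratio of 0.143 (0.0454 to 0.449). The annotated SERPINA5 body begins at the SERPINA4 start through a read-through transcript, and its canonical transcript alone had 3 mock loops instead of 5, a count added after the data had been seen.

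**Figure D4:**
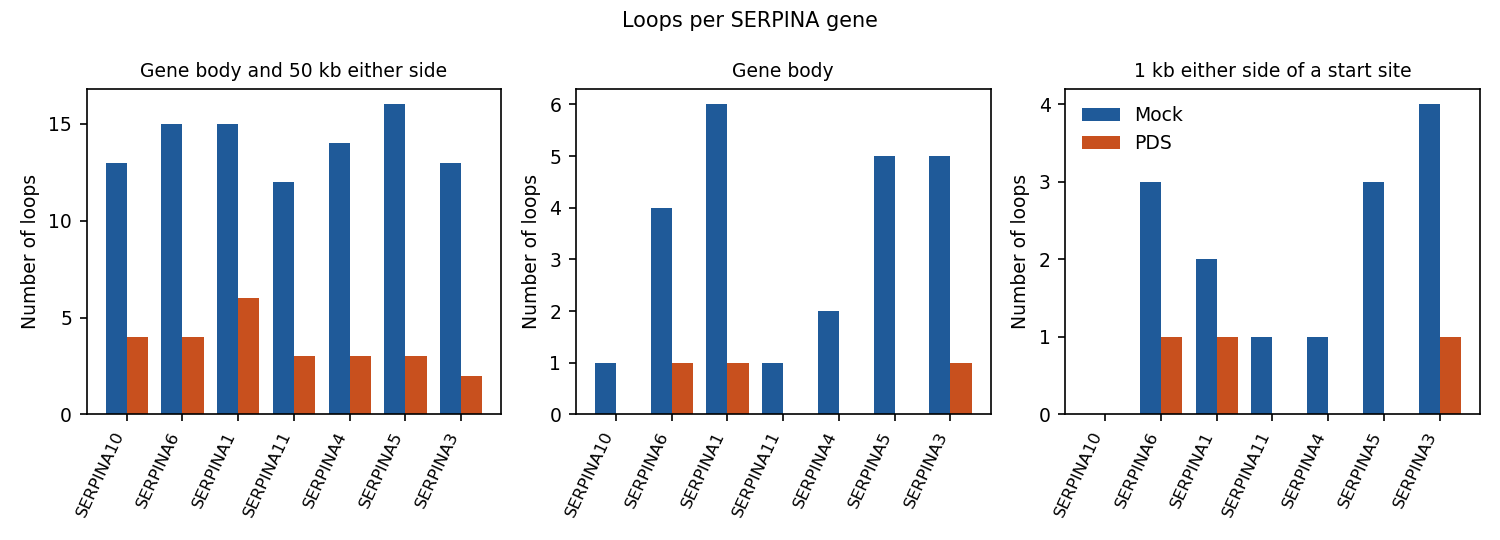
Number of loops (vertical axis) per member gene (horizontal axis, in chromosomal order) in mock-treated (blue) and PDS-treated (orange) cells, counted over the body and 50 kb on either side, over the body, and within 1 kb of a start site. Counts in the first panel overlap between neighbours, whereas in the body panel SERPINA1 leads with 6 mock loops and SERPINA10, SERPINA11, SERPINA4 and SERPINA5 have no PDS bar.

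At start sites, taken as 1 kb on either side of the start of any annotated transcript, 6 of 7 members had a mock loop, where 60.0% of protein-coding genes did, and 3 of 7 had a PDS loop, where 28.8% did. These were 12 distinct mock loops with 43 PETs and 3 distinct PDS loops with 10 PETs, a ratio of 0.250 (0.0758 to 0.824). Cluster loops that touched no member start site gave 31 and 7, a ratio of 0.226 (0.102 to 0.502), and the intervals overlap almost entirely.

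The hormone carrier SERPINA6 had 3 mock loops at its start, and the first of them reached the SERPINA1 promoter. This contact joined chr14:94316267-94324302 and chr14:94384561-94391442, 67.7 kb apart, with 4 PETs in mock-treated cells and none listed after PDS. It was the only loop in either list that joined the start sites of 2 member genes, although its SERPINA1 anchor also lies near a start of ENSG00000289541. The other two, of 3 PETs each, led to the 3′ end of SERPINA6 itself and to the intergenic anchor on its SERPINA2 side. In PDS-treated cells the same SERPINA6 anchor had 1 loop, of 3 PETs, to an exonic anchor of PPP4R4 (chr14:94272473-94280135) 44 kb away.

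SERPINA1 had 2 mock loops at its start sites, the contact with SERPINA6 and the shared contact with ENSG00000289541. Both end in the anchor that also lies near a start of ENSG00000289541. SERPINA1 has 14 annotated start positions, and the canonical start at 94388602 and the upstream starts lie in this 1 anchor, so loops of the start used in hepatocytes and of the upstream starts used in other cells could not be told apart. Its 3′ part formed 4 more mock loops, to SERPINA2, to a pair of ENSG00000289541 anchors and to the SERPINA9 promoter 93.2 kb away, with 3 to 6 PETs. None of these was in the PDS list. The ENSG00000289541 anchor that met the SERPINA1 promoter in both conditions also met the SERPINA5 promoter (chr14:94577990-94584482) at 176 kb with 3 PETs, and IFI27L2, a gene of the IFI27 family, at 279 kb with 3 PETs, both in mock-treated cells alone.

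SERPINA11 had a single loop at its start, the 7-PET contact with SERPINA9, which was the strongest loop at the start of any member. SERPINA10 had 0 loops at a start site in either list, and its body loop of 4 PETs joined an exonic anchor of the gene to PPP4R4 7.44 kb away. Neither gene had a PDS loop at the body.

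On the plus-strand side, the anchor over the SERPINA4 start had 1 mock loop of 3 PETs, to an anchor 20.4 kb away at the start of the noncoding gene ENSG00000287668. The same anchor holds the first start of the SERPINA5 read-through transcript. At its canonical start SERPINA5 had a loop of 4 PETs to its own body 6.19 kb away, beside the contact with ENSG00000289541. Neither SERPINA4 nor SERPINA5 had a PDS loop at the body. Within 1 kb of its start sites SERPINA3 had 4 mock loops with 13 PETs, the most of the members, although within 2500 bp SERPINA1 led with 6 loops against 5 at SERPINA3. The 4 loops led to ENSG00000287668 at 66.6 kb, to ENSG00000288028 at 14.1 kb, to its own 3′ part and to SERPINA13P at 23.1 kb. Only the contact with its own 3′ part was listed after PDS.

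The 6 loops of the PDS list alone had 3 PETs each. In 4 of them both anchors were also used by mock cluster loops in other pairings, and in 1 more a single anchor was. They included the SERPINA6 loop given above, a contact of 92.4 kb from PPP4R4 to the intergenic anchor beside SERPINA6, and a contact of 49.5 kb from an anchor beside the 3′ end of SERPINA11 to an exonic anchor of SERPINA12.

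Predicted G4 motifs (4 G runs, each of 3 or more letters, separated by 1 to 7 letters, searched on both strands) are letters of the reference that can fold into a G4. They were present in 29 of 46 cluster anchors, or 63.0% (48.6 to 75.5), against 39.6% (38.1 to 41.2) on the rest of chromosome 14 and 47.3% over all 81742 anchors. The cluster anchors were also wider, with medians of 6568, 5726.5 and 5822 bp for the 3 sets, and richer in G and C than chromosome 14, with 45.2%, 41.6% and 44.1%. Per 10 kb of anchor the motifs numbered 2.04, 1.58 and 2.20, so by length the cluster lay above the rest of the chromosome and below the genome. The part of width and base composition in the share was not tested.

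The motif nearest to a start is printed for each promoter anchor of a member that holds one, apart from SERPINA5, whose motif is capitalised in the promoter above. Each is on the strand that carries the G runs, which are in capitals. At SERPINA6 the motif is at chr14:94323227-94323248 (plus strand), 82 bp from the nearest start in an intron. At SERPINA1 it is at chr14:94391306-94391329 (plus strand), 624 bp away, before the gene and in an intron of ENSG00000289541. At SERPINA11 it is at chr14:94450864-94450888 (minus strand), 1925 bp away in an intron. At SERPINA4 it is at chr14:94560801-94560823 (minus strand), 631 bp away in the intergenic stretch before the gene. At SERPINA3 it is at chr14:94613159-94613189 (minus strand), 768 bp away in an intron.
SERPINA6 motif: GGGcaGGGGGaGGGacagaGGG
SERPINA1 motif: GGGGGttgtggtGGGaGGGGtGGG
SERPINA11 motif: GGGtcGGGGGatGGGactgaaaGGG
SERPINA4 motif: GGGcaaGGGtggcatGGGGtGGG
SERPINA3 motif: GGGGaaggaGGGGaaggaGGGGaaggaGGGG

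Within 250 bases before the start a motif was found in 1 of 9 member promoters, that of SERPINA5, against 23.5% of all promoters. Its motif at chr14:94581340-94581365 lies 39 bp from the nearest annotated start, in an anchor with 2 mock loops and 0 PDS loops. The SERPINA1 and SERPINA3 promoter anchors, with 3 and 2 motifs, each kept 1 loop in the PDS list. The ENSG00000289541 anchor, with 5 mock loops and 1 PDS loop, held 0 motifs, and the SERPINA13P anchor, with 5 mock loops and 0 PDS loops, held 7. Other anchors went the other way. The intergenic anchor at chr14:94337973-94347742, with 3 motifs, had 3 mock and 2 PDS loops. A SERPINA2 promoter anchor (chr14:94367220-94370366), with 0 motifs, had 2 mock and 0 PDS loops. A relation between motifs and loops kept was not tested.

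Counted by loop, 42 of 43 mock loops (97.7%, 87.9 to 99.6) and 10 of 10 PDS loops (72.2 to 100) had a motif in at least 1 anchor, against 75.2% of all mock loops and 75.5% of all PDS loops. Anchors recur between loops, 1 of them in 6 mock loops. The loops are therefore not independent, and these intervals are too narrow. Summed anchor widths had medians of 17.4 kb in the mock loops of the cluster and 15.4 kb in all mock loops. Motif-bearing anchors made up 28 of the 43 in the mock list and 13 of the 18 in the PDS list, with overlapping intervals of 50.2 to 77.6% and 49.1 to 87.5%. With only 1 cluster loop lacking a motif in both anchors, these counts cannot show whether loops with and without a motif differed after PDS.

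The members are related in sequence, which bears on how reads are placed. Of the 31-base words in a cluster anchor, a median of 5.75% occurred more than once in the genome, with 2 anchors above 20%. Words repeated within the cluster were a median of 0.337% of an anchor, and at most 10.7%, in the SERPINA2 anchor that takes part in the 6-PET loop with SERPINA1. The part of repeated sequence in that loop was not tested.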

How the data were processed

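POLR2A HiChIP-seq libraries of mock- and PDS-treated HepG2 cells, 2 replicates each, were digested with MboI. The authors deposited 1 loop list per condition, holding each loop's counts of PETs as whole numbers not scaled for depth; the submitters' processing notes name HiC-Pro 3.1.0 and GRCh38. The loop caller and the way replicates were combined are not given in the sources used here. Lists were assigned to conditions by their names.

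Loops were kept where an anchor overlapped a member gene, or 50 kb either side, by at least 1 bp (GENCODE 44). They were called shared where both anchors had the same coordinates in both lists, at the cluster and in the shares of the genome. Loop distance is between anchor midpoints. PDS/mock ratios and 95% Wilson intervals were computed with Python 3.11.15, numpy 2.4.6 and scipy 1.17.1, and figures with matplotlib 3.10.9. The functions for loop selection, identical loops and motifs were tested on simulated data, and those for intervals were not. Members, gene lists and motifs were chosen with earlier results of these data known. The genes named were the members, the other serpin genes in and outside the cluster, the flanking genes and genes starting at a partner anchor; the loops named by rule were the 10 with most PETs per list and all shared loops, and the anchors the 5 with most mock loops. Other loops at member bodies were named to describe each gene, but not all of them are given. Alternatives were other windows, PET minimums, distances, overlap rules, start site widths and motif spacers. Windows and sequences use GRCh38, and promoters RefSeq. RNAPII peaks, BG4 peaks and RNA-seq were not analysed here, and results on some named items are not reported here.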

Additional observations from a re-analysis of the deposited data

How the results depend on the processing

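Of 39 values recomputed under an alternative, 21 moved by less than the counting interval or 1.5 times and 18 moved by more. With windows of 10 or 100 kb, both anchors inside, midpoints inside or distances of 5 to 200 kb, the PDS/mock ratio of loop numbers ran from 0.238 to 0.267. On gene bodies alone there were 21 mock and 3 PDS loops. With at least 4 PETs there were 17 and 2, with ratios of 0.118 for loops and 0.0964 for PETs, and with at least 5 PETs there were 7 and 0, so both ratios were 0. PETs divided by the list total gave a ratio of 0.755. This is the cluster's PET ratio of 0.199 divided by that of all chromosomes, 0.263, so it moved by construction. The latter lies in the cluster's interval of 0.136 to 0.290, and list totals are not library depths. With anchors extended by 5 kb, 17 cluster loops were in both lists instead of 4, and 0 were when each list was held to 5 PETs or more. Member genes with a PDS loop numbered 7 with the 50 kb flanks and 3 on bodies, 3 within 1 kb and 3 within 2500 bp of start sites. With spacers of up to 3 bases 18 anchors held a motif. The SERPINA5 canonical transcript had 3 mock loops, an alternative chosen after seeing the data. Fewer loops pass a higher minimum or a narrower window by construction. No paired analysis was possible because each list combines its replicates and no result comes from a test, and leaving out a replicate was not run for the same reason. With 3 PETs in most loops, the lists cannot show whether an unlisted contact was gone or only below the minimum.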

Other observations

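For 10 flanking genes (DDX24, IFI27L1, IFI27, IFI27L2, OTUB2, ASB2, PPP4R4, GSC, DICER1 and CLMN), 46 distinct mock and 10 PDS loops fell on the bodies or 50 kb either side, a ratio of 0.217 (0.111 to 0.425), with some loops shared with the cluster. At the low end GSC, a homeobox gene, had 1 mock loop in this window and 0 PDS loops. CLMN, the gene of the membrane protein calmin, had 13 mock loops at its body with 43 PETs and 0 PDS loops, but 16 and 2 loops with 50 kb either side. At the body PPP4R4 had 9 mock and 4 PDS loops, and DICER1 had 1 and 2. Of the 10 flanking genes 9 had a mock loop at the body and 5 had a PDS loop. Over protein-coding genes these shares were 70.2% and 39.6%. Serpin genes elsewhere varied in their counts. AGT, the gene of angiotensinogen, had 5 mock loops at its start with 17 PETs and 2 PDS loops with 6. SERPINC1, the gene of antithrombin, and SERPING1, the gene of the C1 inhibitor, had 0 loops at the body in either list, and SERPINA7, the gene of thyroxine-binding globulin, had 0 in the 50 kb windows as well. SERPIND1, the gene of heparin cofactor II, had 1 mock loop at its body with 3 PETs and 0 PDS loops. SERPINF1, the gene of pigment epithelium-derived factor, had 3 at its body in the mock list (12 PETs) and 0 in the PDS list. SERPINF2, the gene of alpha-2-antiplasmin, had 4 there in the mock list (17 PETs) and 1 in the PDS list (3 PETs). The interval of the flanking genes overlaps that of the cluster, and no difference between them was tested.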
